A study of Mus musculus with 2 samples.

Results

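The 44 genes described here encode proteins that make ribosomes in the nucleolus: RNA polymerase I, the small nucleolar ribonucleoproteins (snoRNPs), abundant nucleolar proteins, and the factors that process and assemble both ribosomal subunits. They were taken by name, with no threshold on a measured value, but with earlier results of these data known. All 44 were found in the table of spliced transcripts, which holds 22376 genes with a UMI in the cells used. Of the 44, 42 reached a mean of 10 CPM (UMI counts scaled to 1000000 per culture) over all cultures and entered the counts below, as did 7378 genes of the whole table. Fbl and Tsr1 did not, and their levels are given without being counted.

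The cells were the 63.3 line, a mouse acute myeloid leukemia line grown in dialyzed serum with 0.5 µM beta-estradiol and stem cell factor. The gene or construct that makes the line respond to estradiol is not given in the sources used here. Cultures received brequinar at 2 µM or were moved to medium without estradiol, for 6, 12, 24 or 48 h, and each of the 2 series had its own 0 h culture. Estradiol stayed in the medium of the brequinar series, as far as the labels say, and whether its 0 h culture received solvent is not stated. MULTI-seq marked the cells of each culture with a lipid-anchored DNA barcode, and the 10 cultures were then mixed and run together. Every condition is 1 culture. There is therefore no replicate error and no test, and the exact 95% intervals in parentheses cover counting error only. No untreated culture was taken at 6 to 48 h, so time in culture and handling cannot be told apart from either treatment.

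Ribosome production starts in the nucleolus, where RNA polymerase I transcribes the precursor of most ribosomal RNAs. Box C/D snoRNPs guide methylation of that RNA and box H/ACA snoRNPs guide its pseudouridylation, while the small subunit processome folds and cuts the 40S part and another set of factors assembles the 60S part. The pathway takes a large share of the resources of growing cells, is known to be driven by the transcription factor Myc, and is turned down in cells that stop dividing. Brequinar blocks dihydroorotate dehydrogenase in the synthesis of pyrimidines, which are building blocks of ribosomal RNA. Neither nucleotides nor ribosomal RNA were measured here.

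The 12540 cells used fell into 528 to 1536 per culture, with 5236694 to 19931921 UMIs per culture and a median of 6509 to 15229 UMIs per cell. A count of 3 UMIs, taken as the floor of detection, corresponds to 0.151 to 0.573 CPM. All 8 myeloid progenitor markers had UMIs, and their summed level was 1966 to 4037 CPM. Single markers went different ways between 0 and 48 h of withdrawal. Kit went from 121 to 21.9 CPM, Cd34 from 138 to 12.4 CPM and Meis1 from 42.1 to 6.70 CPM. Myb went from 480 to 170 CPM and Mpo from 941 to 503 CPM. Higher at 48 h were Spi1 (198 to 755 CPM), Ptprc (105 to 346 CPM) and Hoxa9 (78.4 to 150 CPM). T cell, erythroid and stromal markers summed to at most 0.832, 1.31 and 1.46 CPM. Of the B cell markers, Cd79a stood at 3.26 to 32.7 CPM and Cd79b at 47.8 to 146 CPM over the cultures, and Ms4a1 was at or near 0, with a highest level of 0.0627 CPM. The 6 neutrophil granule markers summed to 290.1 CPM at 0 h and 1389 CPM at 48 h of brequinar, and to 353 CPM at 0 h and 50633 CPM at 48 h of withdrawal. Libraries of both runs share 1 matrix in which a barcode does not show its run, so barcodes shared between runs could not be counted.

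Summed over the members, the level was below 0 h at every later time in both series, but the 2 time courses had different shapes. Together, the 44 genes took 13597, 11463, 10272, 5456 and 7089 CPM at 0, 6, 12, 24 and 48 h of brequinar. With estradiol withdrawn they took 13712, 9842, 8638, 9743 and 3730 CPM. The brequinar series reached its lowest sum at 24 h and was partly back up at 48 h. The 48 h brequinar culture had the fewest cells, 528, and the fewest UMIs, 5236694. Each time is another culture, so a level back up, here or below, compares cultures and not the same cells. The withdrawal series was already low at 6 h, was lower at 12 h, stood near its 6 h sum again at 24 h, and was lowest at 48 h. Without Npm1, the member with the most counts, the sums were 9833, 7197, 7054, 4168 and 5837 CPM with brequinar and 9891, 5937, 5718, 7119 and 2451 CPM with withdrawal, with the lowest culture of each series the same. Without Npm1 the withdrawal sum was thus partly back up at 24 h, above both 6 and 12 h. Npm1 itself went down over these times, from 3906 CPM at 6 h to 2624 CPM at 24 h. The average cell held 180.3 UMIs of the members at 0 h and 60.0 and 70.3 UMIs at 24 and 48 h of brequinar. In the withdrawal series it held 189 UMIs at 0 h, 102 UMIs at 24 h and 26.6 UMIs at 48 h. These counts per cell are not scaled for depth, which also fell. The median cell held 14849, 11286.5 and 9782 UMIs of all genes at 0, 24 and 48 h of brequinar. With withdrawal it held 15229, 11415 and 6509.

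**Figure D1:**
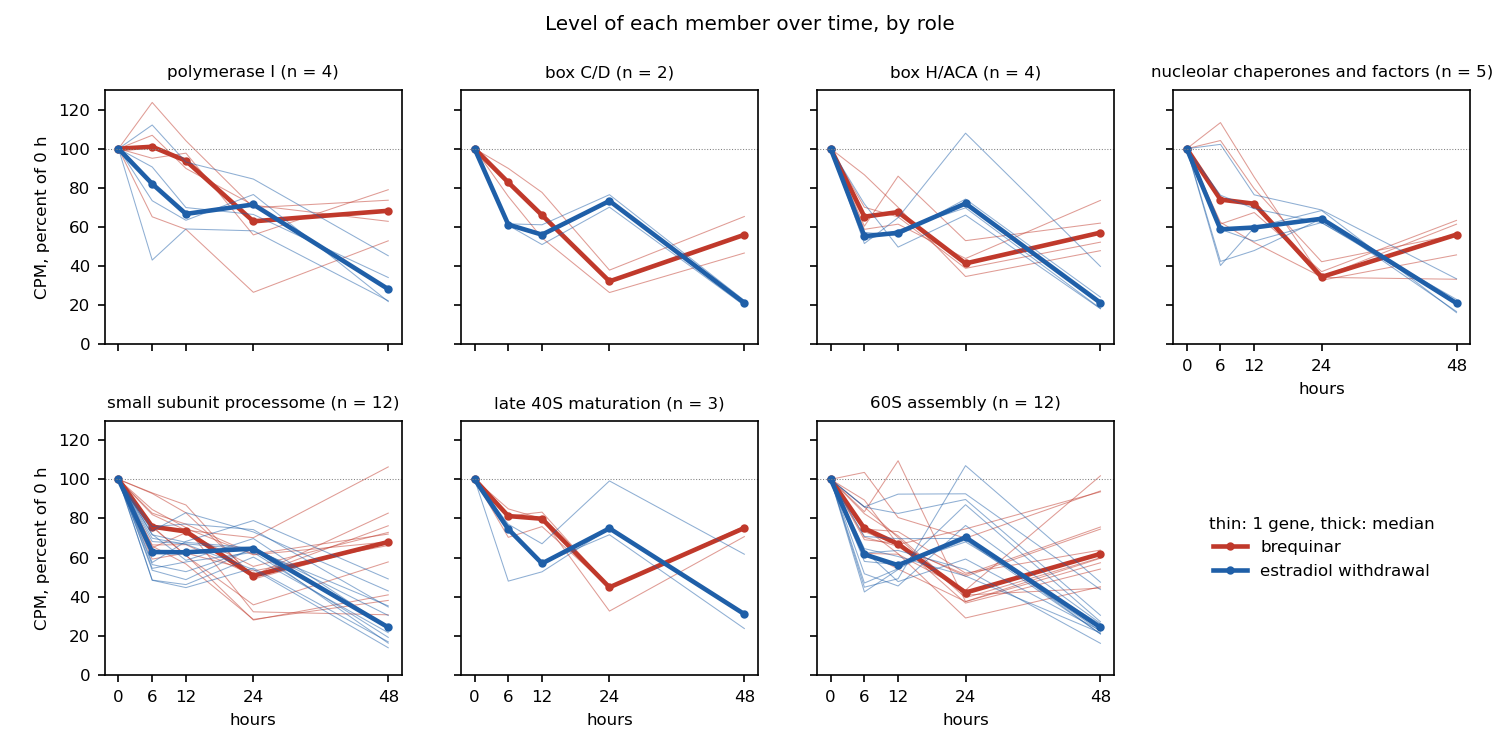
Level of each member that reached a mean of 10 CPM, as a percent of its CPM in the 0 h culture of its own series, against hours of brequinar (red) or estradiol withdrawal (blue), with 1 panel per role. Thin lines are single genes and thick lines their median; n is the number of genes, and each point rests on 1 culture. The red medians are lowest at 24 h and the blue medians at 48 h.

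Counted gene by gene, 11 of the 42 members were at least 1.5-fold lower than at 0 h after 6 h of brequinar, beside 4.59% of all 7378 genes. The count was 15 of 42 at 12 h (4.22% of all genes), 37 of 42 at 24 h (12.9%) and 24 of 42 at 48 h (16.6%). With withdrawal it was 25 of 42 at 6 h (7.43%), 28 of 42 at 12 h (10.0%), 17 of 42 at 24 h (11.8%) and 42 of 42 at 48 h (40.0%). At least 2-fold lower were 26 members at 24 h (5.20% of all genes) and 9 at 48 h of brequinar (5.46%), and, with withdrawal, 41 at 48 h (23.9%). No member was at least 1.5-fold higher than at 0 h at any of the 8 times. Among all genes, 10.2%, 15.6%, 29.0% and 24.7% were that much higher at 6, 12, 24 and 48 h of brequinar, and 14.2%, 15.0%, 9.64% and 19.0% with withdrawal. The median log2 ratio of the members was -0.40, -0.48, -1.22 and -0.65 with brequinar, where that of all genes was 0.07, 0.14, 0.19 and 0.05. With withdrawal it was -0.71, -0.77, -0.53 and -2.10, where that of all genes was 0.09, 0.05, -0.13 and -0.35. The members work in 1 pathway, so their counts are not independent repeats.

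CPM is a share of the culture's total, and the choice of total moves the background. With median-of-ratios size factors the median of all genes was 0.01 at 24 h of brequinar and, for withdrawal, 0.00 at 48 h, and the members' medians were -1.40 and -1.74. Under that scaling 24 members in place of 15 were at least 1.5-fold lower at 12 h of brequinar, where the share of all genes moved too, to 7.75% in place of 4.22%. At 24 h of withdrawal 10 members in place of 17 were, with 8.73% of all genes in place of 11.8%. When cells were weighted to the phase-class shares of 0 h the count there was 11, with 11.03% of all genes. The all-gene split at 48 h of withdrawal was 25.6% lower and 27.6% higher in place of 40.0% and 19.0%, and at 24 h of brequinar 19.1% lower and 21.4% higher in place of 12.9% and 29.0%. The 3 cultures with the lowest member sums also had few cells with at least 10% mitochondrial UMIs, at 3.79% and 1.70% (24 and 48 h of brequinar) and 3.12% (48 h of withdrawal) against 16.2% to 22.7% in the other 7. In cells under 10% and with at least 2500 UMIs, the members' medians were -1.23 at 24 h and -0.68 at 48 h of brequinar and, with withdrawal, -2.10 at 48 h.

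Between the 0 h cultures of both series no member was 1.5-fold apart in either direction, beside 0.312% of all genes lower and 0.0271% higher in the brequinar series. The median log2 ratio of the 42 members between these cultures was -0.02, with an SD across genes of 0.05. No other pair of cultures shares both a treatment and a time.

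Following each gene to its lowest culture, 38 of the 42 were lowest at 24 h of brequinar. The other 4 were Polr1c, Npm1 and Utp20, lowest at 48 h, and Wdr12, lowest at 12 h. In the withdrawal series 41 of 42 were lowest at 48 h, and the other was Rrp1b, which stood at 37.2 CPM at 6 h and 39.3 CPM at 48 h. Neighbouring times were then compared within a series. From 12 to 24 h of brequinar, 26 of 42 members were at least 1.5-fold lower (11.8% of all genes), with a median log2 ratio of -0.76. From 24 to 48 h of brequinar, 18 of 42 were at least 1.5-fold higher (6.44% of all genes), 39 were above their 24 h level, and the median was 0.55. From 12 to 24 h of withdrawal, 4 of 42 were at least 1.5-fold higher (5.25% of all genes), with a median of 0.26, and from 24 to 48 h all 42 were at least 1.5-fold lower (29.1% of all genes), with a median of -1.53. From 6 to 12 h no member was 1.5-fold lower or higher in either series, with medians of -0.15 and -0.06. The withdrawal median turned to 0.031 with cells weighted to the phase-class shares of 0 h, so no direction is given for that step, and 1 or 2 members were called under 5 of the alternatives. Among all genes 3.36% were lower and 7.41% higher over that step of brequinar, and 4.53% and 4.43% over that of withdrawal.

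**Figure D2:**
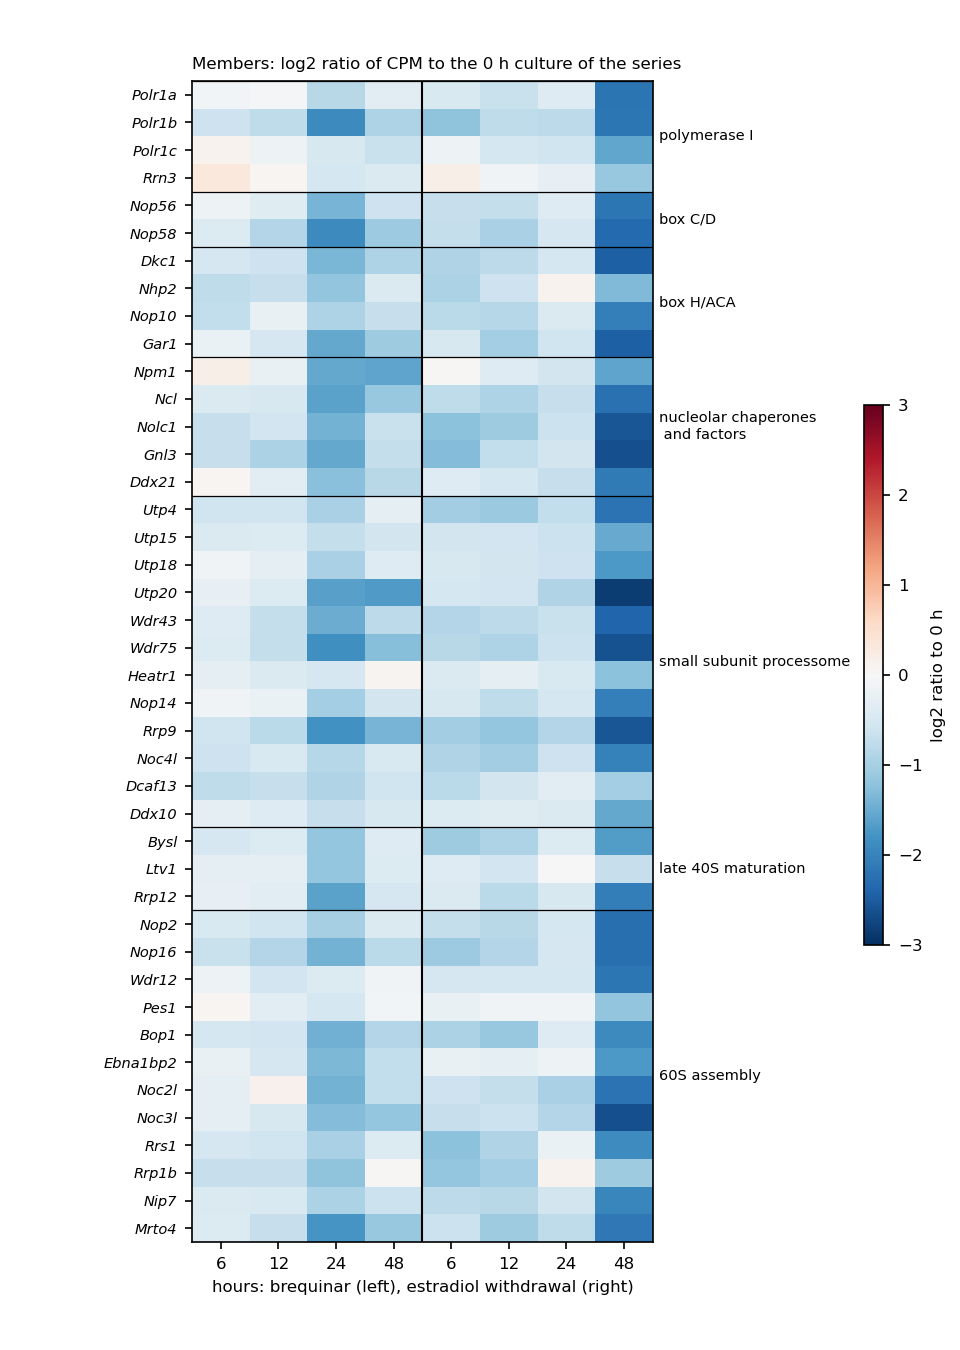
Log2 ratio of CPM to the 0 h culture of the same series for each of the 42 members past the filter (rows, grouped by role) at 6, 12, 24 and 48 h of brequinar (left columns) and estradiol withdrawal (right columns); blue is lower and red is higher. The darkest columns are 24 h of brequinar, with a median of -1.22, and 48 h of withdrawal, with a median of -2.10.

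Sequence upstream of the start sites was looked at because the members moved together, and because Myc is known to bind the E-box CACGTG while ETS family factors bind CTTCCG, which on the other strand reads CGGAAG. RefSeq promoter windows on GRCm38.p6, from 250 bases before to 50 bases after the start, were matched by symbol for 38 of the 44 members, with no entry for Fbl, Npm1, Dcaf13, Rrp12, Bop1 or Rrs1. The E-box, which reads the same on both strands, was in 9 of 38 windows (23.7%), in 17.5% of 80 windows of other ribosome biogenesis genes, in 12.8% of 5923 windows of genes at 10 CPM or more, and in 8.09% of all 27025. The ETS motif on either strand was in 22 of 38 (57.9%), 71.3%, 41.0% and 18.8% of the same sets. The 10-base NRF1 palindrome was in 0 of 38 members, in 3.75% and 2.85% of the next sets and in 1.07% of all. The E-box and the ETS motif cannot overlap each other, and a match is a run of letters, not a bound site. E-boxes were in Rrn3 of the polymerase I genes, in Utp4, Utp18, Utp20 and Wdr43 of the processome, in Ltv1 and Tsr1, and in Nop2 and Pes1. None was in the box C/D or box H/ACA genes with a window. The 5 stretches below, all upstream of the start and read 5′ to 3′ on the gene's strand with the motif in capitals, show an initiation factor with a pair of E-boxes, a 60S methyltransferase gene with 1, and a box H/ACA gene with an ETS motif on each strand.
Rrn3 (chr16:13780462-13780511, plus strand, motif 215 to 210 bases upstream): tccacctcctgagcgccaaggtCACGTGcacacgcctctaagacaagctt
Rrn3 (chr16:13780629-13780678, plus strand, motif 48 to 43 bases upstream): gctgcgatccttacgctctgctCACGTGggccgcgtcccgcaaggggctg
Nop2 (chr6:125131801-125131850, plus strand, motif 60 to 55 bases upstream): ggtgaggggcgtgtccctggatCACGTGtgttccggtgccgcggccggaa
Gar1 (chr3:129831459-129831508, minus strand, motif 90 to 85 bases upstream): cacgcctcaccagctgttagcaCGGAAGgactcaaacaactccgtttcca
Gar1 (chr3:129831412-129831461, minus strand, motif 43 to 38 bases upstream): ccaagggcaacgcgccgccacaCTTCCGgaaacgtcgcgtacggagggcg
The levels of these 3 genes are given with their roles below. Rrn3, with its E-boxes, was among the members with the smallest ratios, and Gar1, with none, was among those with larger ones. Utp20, which also has an E-box, had the largest ratio of the 42 members past the filter at 48 h of withdrawal. Whether members with a motif differ in ratio from those without was not tested.

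The 4 RNA polymerase I genes did not move as 1 set. Their median ratio to 0 h was 1.60-fold lower at 24 h and 1.47-fold lower at 48 h of brequinar. Each time 2 of 4 were at least 1.5-fold lower (Polr1a and Polr1b, then Polr1b and Polr1c), beside 12.9% and 16.6% of all genes. At 48 h of withdrawal the median was 3.63-fold lower, with 4 of 4 past the threshold (40.0% of all genes). Polr1b, the second largest subunit, stood at 20.6, 13.4, 12.1, 5.47 and 10.9 CPM at 0, 6, 12, 24 and 48 h of brequinar. In the withdrawal series Polr1b stood at 20.9, 9.02, 12.3, 12.1 and 4.66 CPM at the same times. It was thus lower at every time after 0 h in both series, 3.76-fold lower (2.99 to 4.77) at 24 h of brequinar and 4.49-fold lower (3.13 to 6.66) at 48 h of withdrawal. Polr1a, the largest subunit, stood at 30.2, 28.7, 29.5, 16.9 and 23.9 CPM with brequinar and at 30.7, 22.5, 19.4, 23.5 and 6.70 CPM with withdrawal, in the same order of times. Its first 3 brequinar cultures lay close together, and the steepest change came at 48 h of withdrawal, at 4.57-fold lower (3.38 to 6.32). Polr1c, a subunit shared with polymerase III, stood at 62.0, 66.2, 55.7, 44.1 and 39.0 CPM with brequinar and at 61.4, 55.7, 42.9, 40.8 and 21.0 CPM with withdrawal. Polr1c was lower at 48 h than at 24 h of brequinar, where most members were higher again, and was 1.59-fold lower (1.37 to 1.85) than at 0 h.

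Rrn3, the initiation factor that recruits polymerase I to its promoter, followed another course. Its level was 91.8, 113, 95.5, 64.1 and 67.6 CPM with brequinar and 95.6, 107, 89.0, 80.7 and 43.3 CPM with withdrawal. At 6 h it was above its 0 h level in both series, 1.24-fold higher (1.15 to 1.32) with brequinar and 1.12-fold higher with withdrawal. At 48 h Rrn3 was 1.36-fold lower (1.21 to 1.53) with brequinar, under the 1.5-fold threshold, and 2.21-fold lower (1.95 to 2.51) with withdrawal. Of these 4 members, Rrn3 and Polr1c had the smallest ratios at 48 h of withdrawal, and Polr1a and Polr1b the largest. Other polymerase I subunits were counted with the other ribosome biogenesis genes. Among them Polr1d was 1.66-fold, Polr1e 3.02-fold, Polr1f 1.86-fold, Polr1g 2.05-fold and Polr1h 1.28-fold lower in that culture.

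Among the box C/D core genes, Nop58 and Nop56 were low together. Nop58, a scaffold protein of these snoRNPs, stood at 417, 315, 227, 110.3 and 194 CPM with brequinar and at 414, 252, 211, 290.2 and 82.2 CPM with withdrawal. Each step to 24 h of brequinar was downward, to 3.78-fold lower (3.59 to 3.97), and at 48 h Nop58 was 1.76-fold higher (1.63 to 1.90) than at 24 h but still 2.14-fold lower (2.01 to 2.29) than at 0 h. With withdrawal it was 5.04-fold lower (4.62 to 5.50) at 48 h. Its partner Nop56 stood at 106, 95.2, 82.2, 40.1 and 69.1 CPM with brequinar and at 105, 64.4, 63.9, 80.0 and 23.5 CPM with withdrawal. Nop56 was 2.64-fold lower (2.42 to 2.88) at 24 h and 1.53-fold lower (1.37 to 1.72) at 48 h of brequinar, and 4.46-fold lower (3.80 to 5.27) at 48 h of withdrawal. Fbl, the methyltransferase fibrillarin of the same particle, was at 5.42, 6.48, 5.14, 3.51 and 4.96 CPM with brequinar and 5.53, 3.81, 4.79, 3.84 and 0.874 CPM with withdrawal, which places it under the filter. Fbl was 1.54-fold lower (1.11 to 2.16) at 24 h of brequinar and, with 6 UMIs counted, 6.32-fold lower (2.81 to 17.6) at 48 h of withdrawal. Reads that match several genes may have been split or dropped in counting, and how this was handled is not given in the sources used here.

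Of the 4 box H/ACA genes, 2 were at least 1.5-fold lower at 6 h of brequinar (4.59% of all genes). At 6 h of withdrawal it was 3 of 4 (7.43%). The proteins of these 4 genes also form part of telomerase. Dkc1, the pseudouridine synthase dyskerin, stood at 258, 181, 168, 100.1 and 135 CPM with brequinar and at 263, 140.3, 153, 183 and 48.2 CPM with withdrawal. It was lower than 0 h at every time, most at 24 h of brequinar (2.57-fold lower, 2.44 to 2.72) and 48 h of withdrawal, at 5.45-fold lower (4.88 to 6.11). Gar1, the partner whose promoter is shown above, stood at 393, 341, 275, 136 and 188 CPM with brequinar and at 399.8, 287, 199, 264 and 72.7 CPM with withdrawal. Its early ratio was small, 1.15-fold lower (1.11 to 1.20) at 6 h of brequinar, and its late ratios were larger, 2.88-fold lower (2.75 to 3.02) at 24 h of brequinar and 5.50-fold lower (5.02 to 6.03) at 48 h of withdrawal.

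Nhp2 and Nop10, the other core proteins of the H/ACA particle, were low early. Nhp2 stood at 608, 357, 373, 267 and 447 CPM with brequinar and at 623, 321, 404, 673 and 248 CPM with withdrawal. It was 1.70-fold lower (1.64 to 1.76) at 6 h of brequinar and 1.94-fold lower (1.87 to 2.01) at 6 h of withdrawal. At 24 h of withdrawal Nhp2 was back above its 0 h level, and at 48 h it was 2.51-fold lower (2.39 to 2.64), against 1.36-fold lower (1.30 to 1.42) with brequinar, a ratio under the threshold. Nop10 stood at 1618, 977, 1391, 857 and 1003 CPM with brequinar and at 1605, 919, 893, 1192 and 387 CPM with withdrawal. With brequinar its course was uneven, since the 12 h culture was higher than the cultures at 6 and 24 h. At 48 h Nop10 was 1.61-fold lower (1.57 to 1.66) with brequinar and 4.14-fold lower (3.98 to 4.31) with withdrawal.

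All 5 nucleolar chaperones and factors were at least 1.5-fold lower at 24 and 48 h of brequinar and after 48 h of withdrawal. The shares of all genes in these cultures were 12.9%, 16.6% and 40.0%. Npm1, nucleophosmin, a histone chaperone and a main protein of the outer nucleolus, stood at 3764, 4266, 3218, 1288 and 1252 CPM with brequinar and at 3821, 3906, 2920.4, 2624 and 1279.9 CPM with withdrawal. At 6 h Npm1 was not below its 0 h level in either series. By 48 h both series had reached nearly the same level, 3.01-fold lower (2.93 to 3.08) with brequinar and 2.99-fold lower (2.92 to 3.05) with withdrawal, and Npm1 was 1 of the 3 members that did not return between 24 and 48 h of brequinar. Ncl, nucleolin, which binds ribosomal RNA and its precursors, stood at 2120.4, 1569, 1524, 695 and 969.5 CPM with brequinar and at 2150.5, 1264, 1134, 1339 and 453 CPM with withdrawal. Ncl was 3.05-fold lower (2.99 to 3.12) at 24 h and 2.19-fold lower (2.12 to 2.25) at 48 h of brequinar, and 4.75-fold lower (4.58 to 4.93) at 48 h of withdrawal.

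Nolc1 and Gnl3 had the largest ratios of this role at 6 h of withdrawal. Nolc1, a chaperone of snoRNPs, stood at 447, 275, 301, 166 and 283 CPM with brequinar and at 437, 185, 209.6, 281 and 73.3 CPM with withdrawal. It was 2.36-fold lower (2.25 to 2.47) at 6 h of withdrawal, partly back at 24 h, and 5.97-fold lower (5.45 to 6.54) at 48 h. Gnl3, the GTPase nucleostemin, stood at 261, 163, 136, 89.8 and 160.2 CPM with brequinar and at 251, 101, 149.8, 172 and 40.7 CPM with withdrawal. It was 2.48-fold lower (2.33 to 2.65) at 6 h and 6.17-fold lower (5.47 to 6.99) at 48 h of withdrawal, and its brequinar culture at 48 h was 1.63-fold lower (1.51 to 1.75). Ddx21, an RNA helicase, ranged from 36.1 to 168 CPM over the 10 cultures and was 2.37-fold lower at 24 h of brequinar and 4.35-fold lower at 48 h of withdrawal.

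Of the 12 small subunit processome genes, 11 were at least 1.5-fold lower at 24 h of brequinar, beside 12.9% of all genes. The count was 5 at 48 h of brequinar (16.6%) and 12 of 12 at 48 h of withdrawal (40.0%). Utp20, a long scaffold protein of the early particle, stood at 33.5, 28.3, 25.3, 10.8 and 10.3 CPM with brequinar and at 33.5, 23.4, 22.4, 18.1 and 4.66 CPM with withdrawal. It stayed low between 24 and 48 h of brequinar, at 3.25-fold lower (2.46 to 4.37) than 0 h, and had the largest ratio of the 42 members at 48 h of withdrawal, 7.18-fold lower (5.04 to 10.6). Wdr75, part of the subcomplex that also acts in transcription of ribosomal DNA, stood at 104, 78.9, 64.0, 29.3 and 42.8 CPM with brequinar and at 108, 61.1, 57.2, 69.7 and 17.6 CPM with withdrawal. Wdr75 was 3.56-fold lower (3.23 to 3.94) at 24 h of brequinar and 6.14-fold lower (5.11 to 7.44) at 48 h of withdrawal. Rrp9, the protein that marks the U3 snoRNP, stood at 63.6, 41.9, 36.1, 18.1 and 24.3 CPM with brequinar and at 62.7, 30.4, 28.01, 34.3 and 10.6 CPM with withdrawal. At 48 h of brequinar Rrp9 was 2.62-fold lower (2.18 to 3.17) than at 0 h.

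Wdr75 belongs with Utp4, Utp15, Wdr43 and Heatr1 to the UTP-A subcomplex, a grouping applied after the values were seen. At 48 h of withdrawal these genes were 6.14-fold lower, 4.62-fold lower, 2.83-fold lower, 5.20-fold lower and 2.33-fold lower, in that order of naming (Wdr75, Utp4, Utp15, Wdr43, Heatr1). With 48 h of brequinar they spread from 2.44-fold lower for Wdr75 to 1.06-fold higher for Heatr1, which stood at 44.9 against 42.2 CPM. Genes of 1 subcomplex thus did not keep 1 ratio at 48 h in either series. The remaining processome genes, Utp18, Nop14, Noc4l, Dcaf13 and Ddx10, were between 1.62-fold (Ddx10) and 2.04-fold lower (Nop14) at 24 h of brequinar. In the 48 h withdrawal culture they were between 2.04-fold (Dcaf13) and 4.14-fold lower (Nop14).

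Late maturation of the 40S subunit was represented by Bysl, Ltv1, Rrp12 and Tsr1. All 3 past the filter were at least 1.5-fold lower at 24 h of brequinar (12.9% of all genes). At 48 h of brequinar it was 0 of 3 (16.6%). Rrp12, an export factor, stood at 31.9, 27.0, 25.4, 10.4 and 22.5 CPM with brequinar and at 30.1, 22.4, 17.1, 21.6 and 7.14 CPM with withdrawal. It was 3.06-fold lower (2.59 to 3.64) at 24 h of brequinar and then 2.17-fold higher (1.70 to 2.75) at 48 h than at 24 h. Bysl stood at 51.2, 36.0, 38.9, 23.0 and 39.0 CPM with brequinar and at 52.9, 25.4, 27.9, 39.7 and 16.5 CPM with withdrawal, and was 2.08-fold lower (1.83 to 2.38) at 6 h of withdrawal. Ltv1, whose product is released late from the 40S particle, stood at 88.5, 71.9, 73.6, 39.7 and 66.5 CPM with brequinar and at 82.1, 63.3, 55.1, 81.5 and 50.7 CPM with withdrawal. Ltv1 was the member with the smallest ratio at 48 h of withdrawal, 1.62-fold lower (1.44 to 1.83), and at 24 h of withdrawal it did not differ from 0 h beyond counting error. Tsr1 ranged from 2.04 CPM at 48 h of withdrawal to 15.2 CPM at 0 h of the same series.

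Of the 12 genes of 60S assembly, 10 were at least 1.5-fold lower at 24 h of brequinar, beside 12.9% of all genes. The count was 7 at 48 h of brequinar (16.6%) and 12 of 12 at 48 h of withdrawal (40.0%). Nop2, a methyltransferase of the large ribosomal RNA with an E-box in the window above, stood at 49.2, 36.0, 32.6, 24.8 and 36.7 CPM with brequinar and at 50.6, 30.9, 28.3, 34.9 and 10.6 CPM with withdrawal. It was 1.98-fold lower (1.77 to 2.23) at 24 h of brequinar, 1.34-fold lower (1.15 to 1.57) at 48 h, and 4.76-fold lower (3.75 to 6.13) at 48 h of withdrawal. Nop16 stood at 157, 98.9, 84.9, 58.8 and 89.9 CPM with brequinar and at 153, 72.1, 83.4, 109 and 32.2 CPM with withdrawal. It was at least 1.5-fold lower at all 4 times of brequinar, between 1.59-fold lower at 6 h and 2.67-fold lower at 24 h. Noc3l, an assembly factor of the early 60S particle, stood at 46.9, 38.6, 33.3, 19.1 and 20.8 CPM with brequinar and at 49.5, 30.9, 31.5, 26.7 and 8.01 CPM with withdrawal. At 48 h of brequinar Noc3l was 2.25-fold lower (1.84 to 2.77), and was 6.18-fold lower (4.70 to 8.26) at 48 h of withdrawal.

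Pes1, Bop1 and Wdr12 form the PeBoW complex, again a grouping applied after the values were seen. After 48 h of brequinar Bop1 was 1.85-fold lower (1.54 to 2.22), while Pes1 was 1.06-fold lower (0.956 to 1.18) and Wdr12 1.07-fold lower (1.00 to 1.14). After withdrawal for 48 h Wdr12 was 4.46-fold lower (4.01 to 4.97), Bop1 3.79-fold lower (3.07 to 4.73) and Pes1 2.29-fold lower (2.02 to 2.61). At the earlier times of brequinar Wdr12 was 1.4996-fold lower (1.43 to 1.58) at 12 h, just under the threshold, and 1.34-fold lower (1.28 to 1.40) at 24 h. Rrp1b, which binds protein phosphatase in the nucleolus, returned most of the members between 24 and 48 h of brequinar. It stood at 81.0, 50.4, 50.0, 35.1 and 82.5 CPM with brequinar and at 82.9, 37.2, 40.8, 88.8 and 39.3 CPM with withdrawal. In the 48 h brequinar and the 24 h withdrawal culture Rrp1b did not differ from its 0 h level beyond counting error. The other members of the role, Ebna1bp2, Noc2l, Rrs1, Nip7 and Mrto4, were between 1.92-fold lower (Nip7) and 3.43-fold lower (Mrto4) at 24 h of brequinar, and between 3.28-fold lower (Ebna1bp2) and 4.64-fold lower (Noc2l) at 48 h of withdrawal.

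Read by role, the median member was 3.16-fold lower for box C/D, 2.90-fold for the nucleolar chaperones and factors, 2.42-fold for box H/ACA, 2.38-fold for 60S assembly, 2.23-fold for late 40S maturation, 1.97-fold for the processome and 1.60-fold for polymerase I at 24 h of brequinar. After 48 h of withdrawal the same medians were 4.74, 4.75, 4.75, 4.12, 3.21, 4.11 and 3.63. With 2 to 12 genes a role and ranges that overlap, these medians give an order in these cultures only.

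The treatments were also set against each other at the same time. At 6 h no member was 1.5-fold lower with brequinar than with withdrawal (2.22% of all genes) and 2 of 42 were higher (2.02%), Gnl3 and Rrs1, with a median log2 ratio of 0.32. The 2 became 4 without a filter and 5 with 5% free RNA removed. At 12 h it was 0 lower (7.67%) and 3 higher (13.1%), with a median of 0.26, beside 0.10 for all genes. The 3 became 1 with size factors, 6 with free RNA removed and 0 with the phase-class shares of 0 h, where the median was 0.11 beside 0.09 for all genes. By 24 h the order had turned: 23 of 42 members were at least 1.5-fold lower with brequinar (8.00% of all genes) and 0 higher (29.1%), with a median of -0.76. The 23 became 36 with size factors, where the all-gene split was 15.95% lower and 17.0% higher. At 48 h 0 were lower (7.02%) and 39 of 42 higher with brequinar (38.4%), with a median of 1.27, beside 0.40 for all genes. With size factors the median was 0.84 and the all-gene split 19.1% lower and 17.4% higher.

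**Figure D3:**
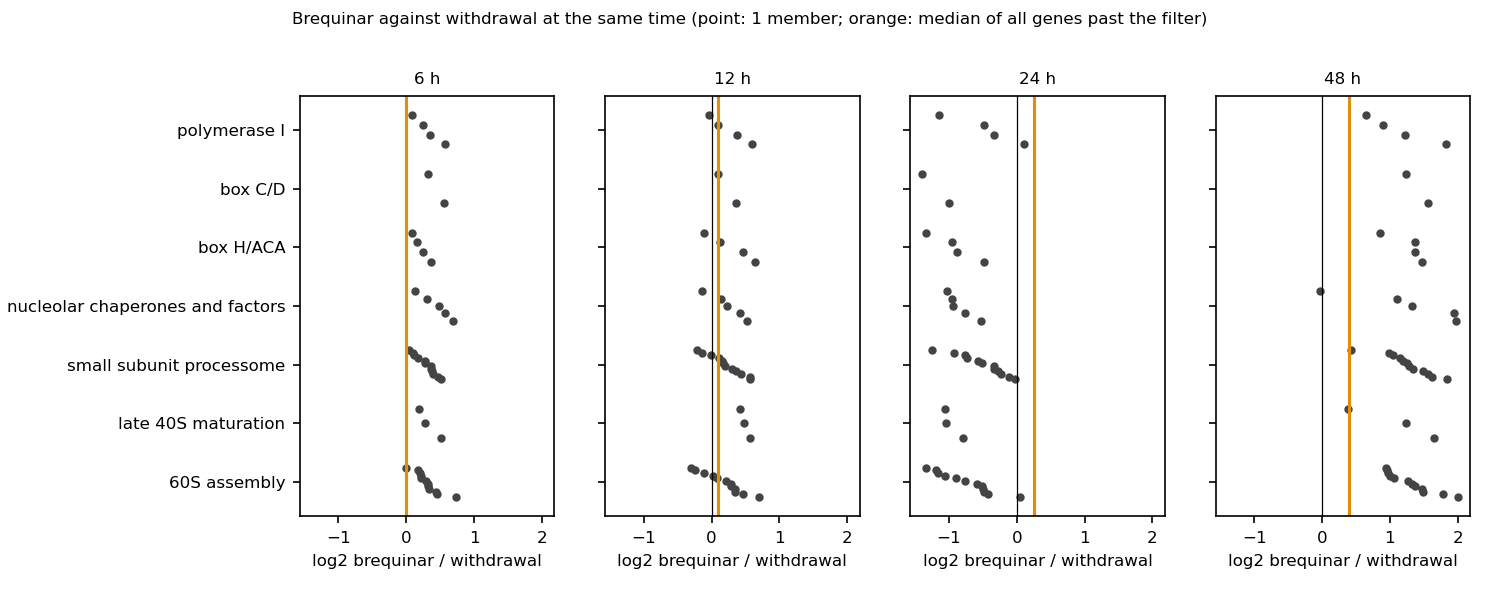
Log2 ratio of CPM in the brequinar culture to that in the withdrawal culture at 6, 12, 24 and 48 h, 1 point per member past the filter, by role; the black line is a ratio of 1 and the orange line the median of all genes past the filter. Points lie mostly left of the orange line at 24 h, with a median of -0.76, and mostly right of it at 48 h, with a median of 1.27.

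Single genes show the crossing. At 24 h Nop58 stood at 110.3 CPM with brequinar and 290.2 CPM with withdrawal, 2.63-fold lower (2.49 to 2.78). At 48 h the same gene stood at 194 and 82.2 CPM, 2.37-fold higher (2.13 to 2.63). Rrp1b crossed likewise, 2.53-fold lower at 24 h and 2.10-fold higher at 48 h. Wdr12 had the largest ratio at 48 h, 4.03-fold higher (3.58 to 4.54), and did not differ beyond counting error at 24 h, where its levels were 174 and 169 CPM. The 3 members under the 1.5-fold threshold at 48 h were Ltv1 (1.31-fold higher), Dcaf13 (1.35-fold higher) and Npm1, at 1252 and 1279.9 CPM. Against their own 0 h cultures at 48 h, all 42 members were at least 1.5-fold lower with withdrawal (40.0% of all genes) and 24 with brequinar (16.6%). Every member lower with brequinar was therefore lower in both series by necessity, and the overlap over all genes was not computed. The other 18 were under the threshold with brequinar. The 18 were Bysl, Ddx10, Heatr1, Ltv1, Nhp2, Noc4l, Nop14, Nop2, Pes1, Polr1a, Rrn3, Rrp12, Rrp1b, Rrs1, Utp15, Utp18, Utp4 and Wdr12, which include all 3 late 40S genes past the filter.

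Cells of a culture were next looked at one by one, each thinned to 2500 UMIs so that depth was equal, with 13 to 249 shallower cells left out per culture. The median cell held 33, 28, 25, 12 and 16 member UMIs at 0, 6, 12, 24 and 48 h of brequinar. With withdrawal it held 34, 24, 21, 23 and 7. In unthinned cells the members' median share of UMIs was 1.30%, 1.10%, 0.970%, 0.484% and 0.675% with brequinar and 1.32%, 0.928%, 0.789%, 0.881% and 0.292% with withdrawal. The middle range of cells (quartiles) at 24 h of brequinar, 9 to 17 UMIs, lay wholly below that at 0 h, 27 to 39 UMIs. So did that at 48 h of withdrawal, 5 to 11 UMIs against 28 to 39 UMIs. Cells at or below the 10th percentile of their own 0 h culture made up 21.8% at 6 h, 37.0% at 12 h, 90.9% (89.3 to 92.4) at 24 h and 78.8% (75.05 to 82.3) at 48 h of brequinar. With withdrawal they made up 47.5% at 6 h, 64.5% at 12 h, 51.3% at 24 h and 97.9% (96.7 to 98.7) at 48 h. The lower levels at 24 h of brequinar and 48 h of withdrawal were thus found in most cells, not in a few.

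**Figure D4:**
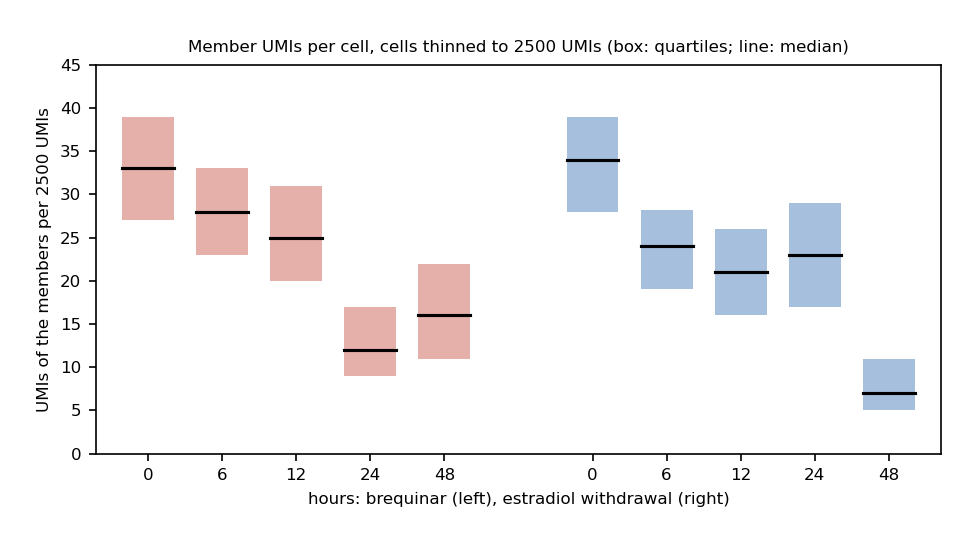
UMIs of the 44 members per cell after thinning each cell to 2500 UMIs, by hours of brequinar (red, left) and estradiol withdrawal (blue, right); boxes span the quartiles of cells in 1 culture and the line is the median. The box at 24 h of brequinar spans 9 to 17 UMIs and that at 48 h of withdrawal 5 to 11 UMIs, both below the boxes at 0 h.

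The members were also summed within phase classes, assigned from S phase and G2/M gene scores in thinned cells. The classes are ranges of a score, and whether cycling itself changed was not tested. At 0 h 52.9% and 51.1% of cells of the 2 series were in the S class and 44.4% and 46.7% in the G2/M class, with only 35 and 26 cells in the G1-like class. At 24 h of brequinar 79.7% were in the G2/M class, and at 48 h of withdrawal 59.6% were in the G1-like class. Within the S class the member sum was 2.12-fold lower at 24 h and 1.89-fold lower at 48 h of brequinar, and 3.05-fold lower at 48 h of withdrawal. Within the G2/M class the ratios were 2.55-fold, 1.79-fold and 3.17-fold lower. In the G1-like class they were 2.53-fold, 2.49-fold and 4.20-fold lower, against the few G1-like cells at 0 h. The members were therefore lower within each class in these 3 cultures. The classes were assigned from counts that hold free RNA as well, and its part in them was not tested.

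Neutrophil granule transcripts, which summed to 50633 CPM at 48 h of withdrawal, differed widely among the cells of that culture. Cut by the UMIs of the 6 granule markers per 2500, a range and not a cell type, 280 cells (31.5%) had 0 to 5, 248 cells (27.9%) had 6 to 50 and 360 cells (40.5%) had more than 50. The median cell of these ranges held 11, 8 and 5 member UMIs, against 34 at 0 h. For the last range it was 6.17 per 2500 UMIs of other genes, since granule transcripts take up part of each cell's total. Even cells with 0 to 5 granule UMIs were thus far below 0 h, and cells with more granule UMIs held fewer member UMIs. At 48 h of brequinar 492 cells (95.5%) had 0 to 5 granule UMIs, with a median of 17 member UMIs.

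Other genes of ribosome biogenesis moved the same way by less. Of 97 further genes of the pathway found in the table, 86 passed the filter, and 9, 23, 54 and 43 of them were at least 1.5-fold lower at 6, 12, 24 and 48 h of brequinar. Among all genes 4.59%, 4.22%, 12.9% and 16.6% were that much lower. With withdrawal the counts were 32, 38, 18 and 76, beside 7.43%, 10.0%, 11.8% and 40.0% of all genes. In both series at most 1 gene was 1.5-fold higher at any time, beside 9.64% to 29.0% of all genes. Their median log2 ratios were -0.23, -0.37, -0.76 and -0.57 with brequinar and -0.46, -0.52, -0.41 and -1.46 with withdrawal. At 48 h of brequinar the lowest were Emg1, an rRNA methyltransferase (182 against 473 CPM, 2.60-fold lower), Wdr46 (2.32-fold lower) and Ruvbl2 (2.27-fold lower). After 48 h of withdrawal they were Rcl1 (18.2 against 124 CPM, 6.81-fold lower), Nat10, an rRNA acetyltransferase (6.36-fold lower), and Mdn1 (6.11-fold lower). Riok3, a kinase of late 40S maturation, was the highest in both series, at 122 against 78.4 CPM with brequinar and 174 against 76.6 CPM with withdrawal. Next to it were Riok1 (1.30-fold higher) and Pih1d1 (1.19-fold higher) with brequinar, and Nop53 (1.48-fold higher) and Nsa2 (1.28-fold higher) with withdrawal.

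Genes for the ribosomal proteins themselves took another course. Of 76 found, 73 passed the filter, and 0, 0, 23 and 44 were at least 1.5-fold lower at 6, 12, 24 and 48 h of brequinar, with median log2 ratios of 0.31, 0.04, -0.43 and -0.65. The shares of all genes were 4.59%, 4.22%, 12.9% and 16.6%. With withdrawal 0, 0, 0 and 9 ribosomal protein genes were that much lower, with medians of 0.25, 0.22, 0.00 and -0.13. The shares of all genes were 7.43%, 10.0%, 11.8% and 40.0%, so at 48 h the ribosomal protein genes lay under the share of all genes. At 48 h of withdrawal the members had a median log2 ratio of -2.10 and the ribosomal protein genes one of -0.13, beside -0.35 for all genes. At 48 h of brequinar both medians were -0.65, beside 0.05 for all genes.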

How the data were processed

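The data are raw counts of spliced UMIs (unique molecular identifiers) per cell barcode and gene that the authors deposited as an unfiltered matrix. Libraries followed the 10x Genomics scRNA-seq v3 workflow, per the labels. Tools listed in the submitters' processing notes, with no role given, are bustools 0.39.4, kallisto 0.46 and Cell Ranger. Build, annotation and strand handling were not stated there. The authors' deposited barcode calls gave each cell its culture. From 15582 distinct barcodes, 2777 doublets and 265 negatives were removed, which leaves 12540 cells, to which neither a quality filter nor a doublet caller was applied. They hold 63.9% of all spliced UMIs. Symbols came from a reference table of gene names, for 54723 of 54838 IDs. Counts were summed per culture and scaled to CPM with no pseudocount. Genes with a mean of at least 10 CPM over all 10 conditions were counted, and a gene at least 1.5-fold apart was called. Folds are CPM ratios with exact 95% Clopper-Pearson intervals of the conditional binomial. The ratio step was tested on simulated counts. Phase scores used scanpy 1.11.5, with cells of at least 2500 UMIs thinned to that number. The unspliced matrix was not used.

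The members, roles, lists and alternatives were chosen with earlier results of these data known. Levels in all cultures are given for the box C/D, box H/ACA and polymerase I genes, Npm1 and Ncl, and for the 3 members of each other role with the largest log2 ratio at 24 or 48 h. Of the other ribosome biogenesis genes, the 3 lowest and 3 highest at 48 h of each treatment are named, and also the further polymerase I subunits Polr1d to Polr1h. Protein sequences were not used here. Comparisons between neighbouring times were added after the data had been seen. The tables were handled with Python 3.11.15, numpy 2.4.6, pandas 2.3.3 and scipy 1.17.1. One marker gene, and the sum of the list that holds it, are not reported here.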

Additional observations from a re-analysis of the deposited data

How the results depend on the processing

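Each count was recomputed under 10 alternatives: a minimum of 20 CPM, no filter, median-of-ratios size factors, a total without mitochondrial genes, equal weight for every cell, cells of at least 2500 UMIs and under 10% mitochondrial, both 0 h cultures as control, removal of 5% free RNA, cells weighted to the phase shares of 0 h, and no granule-richest 2% of cells. Of the counts of members, 344 stayed within 1.5 times their value and 14 did not. Many of these counts were 0, such as those of members higher than at 0 h. A count of 0 that stayed 0 is among the 344. Of the members' median log2 ratios, 139 moved by less than the SD of 0.05 between the 0 h cultures, 39 by more, and 1 changed sign. Of the folds of single members at 24 and 48 h against 0 h, 1527 stayed within their counting interval and 233 did not. No called fold changed direction. The minimum of 20 CPM and the setting without a filter cannot change a fold, so their 176 folds each stayed by construction. With size factors 88 moved out of the interval and 88 stayed, and with the phase shares of 0 h 70 and 106. With equal weight for every cell it was 43 and 133, and with 5% free RNA removed 30 and 146. Under each of the other settings at most 1 moved. With size factors the members lower were 24 at 12 h of brequinar (7.75% of all genes), 10 at 24 h of withdrawal (8.73%) and 36 (15.95%) for brequinar against withdrawal at 24 h, while 1 was higher for that comparison at 12 h and 1 from 6 to 12 h of withdrawal. Without a filter 4 were higher for brequinar against withdrawal at 6 h and 1 was lower from 6 to 12 h of brequinar. With 5% free RNA removed 5 were higher for brequinar against withdrawal at 6 h, 6 at 12 h, and 1 from 6 to 12 h of withdrawal. With the phase shares of 0 h 11 were lower at 24 h of withdrawal, 0 were higher for brequinar against withdrawal at 12 h, 2 were higher from 6 to 12 h of withdrawal, and the members' median log2 ratio over that step was 0.031 in place of -0.06. With equal weight for every cell 1 was higher over that step. The cause of these differences was not tested. In cells thinned to 5000 UMIs the share of cells at or below the 10th percentile of 0 h was 36.2%, 53.2%, 96.9% and 89.3% at 6, 12, 24 and 48 h of brequinar and 56.6%, 77.1% and 60.2% at 6, 12 and 24 h of withdrawal. That setting changes both the depth and the cells kept. No paired analysis was possible because each condition is 1 culture and both runs share 1 matrix. Depth limits Fbl and Tsr1 most, and a planned description of protein sequences was not run.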
